A study of Homo sapiens with 14 samples.

Results

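The CUTLL1 control of this series was deposited as 2 different pooled columns, and the comparison below sets one part of it against the other. CUTLL1 is a human T cell acute lymphoblastic leukemia line, and the control cells carried a retrovirus with a short hairpin against Renilla luciferase, a gene that human cells lack. The table that pairs the control with the JMJD3 hairpin gave its shRenilla column 258014046 counts, and the table that pairs it with the UTX hairpin gave 144394369. None of the 55075 genes had fewer counts in the larger column than in the smaller, so the smaller column, here called the smaller pool, was subtracted gene by gene. What was left, here called the remainder, held 113619677 counts, 44.0% of the larger column. The comparison covers the 18546 genes with at least 50 counts in either part, of which 12778 code for proteins.

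The series holds 14 RNA sequencing samples. CUTLL1 had 3 with the hairpin against JMJD3 (gene KDM6B), 2 with the hairpin against UTX (gene KDM6A) and 3 with the Renilla hairpin, and CEM, another T cell leukemia line, had 2 of each. All cells grew in suspension in RPMI medium and were infected with a retrovirus, and RNA was either selected for poly(A) or depleted of ribosomal RNA before strand-marking libraries were read as 50-nt single reads. The sources used here do not say which of the 3 control samples make up each part or which selection each received. Each part is therefore 1 pooled value per gene with no replicates, no test between the parts is possible, and the 95% intervals below, exact binomial ones, take in counting error and nothing else. Ratios are log2 of the remainder over the smaller pool after TMM scaling (trimmed mean of M values, a scaling that sets the bulk of genes level), with a prior count of 2.

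Both parts carried the same hairpin in the same line, so a difference between them is not one of knockdown. KDM6B had 21.5 CPM (a gene's counts in each 1000000 counts of a column) in the smaller pool and 15.3 in the remainder, a log2 ratio of 0.03 (interval -0.05 to 0.12). KDM6A had 43.0 and 26.5 CPM, a log2 ratio of -0.17 (-0.23 to -0.11). Neither targeted gene was 2-fold apart. The antigen receptor segments, which mark a T cell clone because each clone joins its own V segments, were alike in both for the beta and alpha chains. TRBV6-6 held 92.9% of the beta chain V counts in the smaller pool and 94.9% in the remainder, and TRAV9-2 held 51.3% and 53.9% of the alpha chain V counts. TRBV3-1, with 94.5% of beta V counts in CEM shRenilla, had 6 counts in each part. The gamma chain differed more: TRGV2 held 98.1% of its V counts in the smaller pool (6679 counts) and 82.8% in the remainder (5701), and TRGV4, with 31.3% of its 50-mers repeated, held 0.0441% (3) and 14.6% (1007).

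All 11 T cell markers were at 1 CPM or more in both parts, with a summed level of 4765 CPM in the smaller pool and 2700 CPM in the remainder. CPM sums are not TMM-scaled, and after TMM scaling the median log2 ratio of the 11 markers was -0.35. Markers of other cell types were low in both: B cell markers summed to 4.19 and 1.23 CPM, myeloid to 2.85 and 1.80, NK cell to 30.9 and 8.38, erythroid to 0.388 and 1.82, fibroblast to 6.70 and 0.229, epithelial to 7.74 and 5.58, and endothelial to 0.139 and 0.0352. Fewer cells of a type and less RNA per cell cannot be told apart in bulk samples. The part of these other cell types in the ratios was not tested.

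Many human RNAs are encoded in more than 1 place. The U1 small nuclear RNA, which pairs with the 5' splice site of pre-mRNA, has several identical genes, and 7SK, which holds back the elongation kinase P-TEFb, has many copies made by retrotransposition, as do the mRNAs of ribosomal proteins. A short read from such an RNA matches several places, and aligning and counting programs differ in whether they drop it, place it once or count it everywhere. RMRP, the RNA of the mitochondrial RNA processing ribonuclease, has a sequence that is its own. The following 3 genes, shown after their values were seen, differ in their share of repeated sequence. Sequences are those of GENCODE release 29 on GRCh38, written 5' to 3' as RNA genes in DNA letters, and capitals mark bases that lie in a stretch of 50 bases (a 50-mer, the length of a read) found at another annotated place.

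RNU1-1, chr1:16514122-16514285, minus strand, 100% of 50-mers repeated: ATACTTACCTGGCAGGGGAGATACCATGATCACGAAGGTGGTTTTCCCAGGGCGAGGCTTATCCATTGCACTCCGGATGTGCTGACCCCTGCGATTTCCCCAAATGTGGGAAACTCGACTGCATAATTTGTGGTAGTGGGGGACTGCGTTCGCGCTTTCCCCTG
RN7SK, first 300 bases, chr6:52995620-52995919, plus strand, 76.6% of 50-mers repeated: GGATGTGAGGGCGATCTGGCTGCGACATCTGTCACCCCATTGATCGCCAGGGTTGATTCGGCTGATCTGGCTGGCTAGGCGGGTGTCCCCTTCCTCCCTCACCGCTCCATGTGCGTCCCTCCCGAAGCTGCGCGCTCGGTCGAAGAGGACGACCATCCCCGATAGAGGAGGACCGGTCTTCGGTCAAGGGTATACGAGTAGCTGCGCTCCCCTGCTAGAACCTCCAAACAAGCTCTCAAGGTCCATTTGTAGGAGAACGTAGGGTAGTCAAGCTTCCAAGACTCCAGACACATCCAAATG
RMRP, chr9:35657754-35658017, minus strand, 0% of 50-mers repeated: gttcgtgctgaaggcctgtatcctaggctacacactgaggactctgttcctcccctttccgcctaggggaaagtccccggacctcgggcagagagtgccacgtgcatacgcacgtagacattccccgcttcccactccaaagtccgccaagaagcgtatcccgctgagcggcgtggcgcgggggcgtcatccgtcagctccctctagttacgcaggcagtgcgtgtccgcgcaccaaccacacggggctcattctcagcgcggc

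Both genes printed in capitals had far more counts in the remainder than in the smaller pool. RNU1-1 had 212 counts in the smaller pool, 149 in the shUTX column, 720628 in the remainder and 822357 in the shJMJD3 column. RN7SK had 91590 in the smaller pool and 6030268 in the remainder, a log2 ratio of 6.92 (6.91 to 6.92). RMRP, printed in lower case, did not show this. It had 1105990 counts in the smaller pool and 518733 in the remainder, a log2 ratio of -0.22 (-0.22 to -0.21).

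Across all genes, 3070 were at least 2-fold higher in the remainder (16.6% of those compared) and 1379 at least 2-fold lower (7.44%). Among protein-coding genes 976 were higher (7.64%) and 878 lower (6.87%). The balance depends on the scaling. With column totals the counts were 2577 higher and 4406 lower for all genes, and 672 and 3167 for protein-coding genes. With the median of protein-coding genes with at most 1% repeated 50-mers set to 0, protein-coding genes gave 1241 higher and 609 lower, and with protein-coding totals 907 and 1025. A share of repeated 50-mers could be computed for 17797 of the 18546 genes. The higher genes were mostly genes with repeated sequence: 51.7% of the 2852 with a share had over 20% of their 50-mers repeated, against 8.97% of all genes compared. The lower genes were mostly genes with sequence of their own: 82.6% of the 1325 with a share had at most 1% repeated, against 65.45% of all genes.

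The ratio climbed with the share of repeated sequence. Its median was -0.22 in the 2371 genes with no repeated 50-mer, -0.20 in the 9278 with up to 1% and -0.09 in the 3189 with over 1% to 5%. It was 1.35 in the 1362 genes with over 5% to 20%, 3.96 in the 791 with over 20% to 50%, 5.82 in the 574 with over 50% to 90% and 6.67 in the 232 above that. In the last 2 of these groups 96.9% and 96.1% of genes were at least 2-fold higher in the remainder. The minimum of 50 counts could be met through the remainder alone. In these ranges 209 and 60 genes reached 50 counts in shUTX or the smaller pool. Many of the 574 and 232 genes thus entered through the remainder, and their being higher is in part set by that rule. Protein-coding genes alone showed the same climb, from -0.30 with no repeated 50-mer to 7.96 above 90%. This split of the genes was chosen after the values were seen. The sources used here do not say how reads with more than 1 place were aligned and counted, and the part of this in the ratios was not tested.

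**Figure D1:**
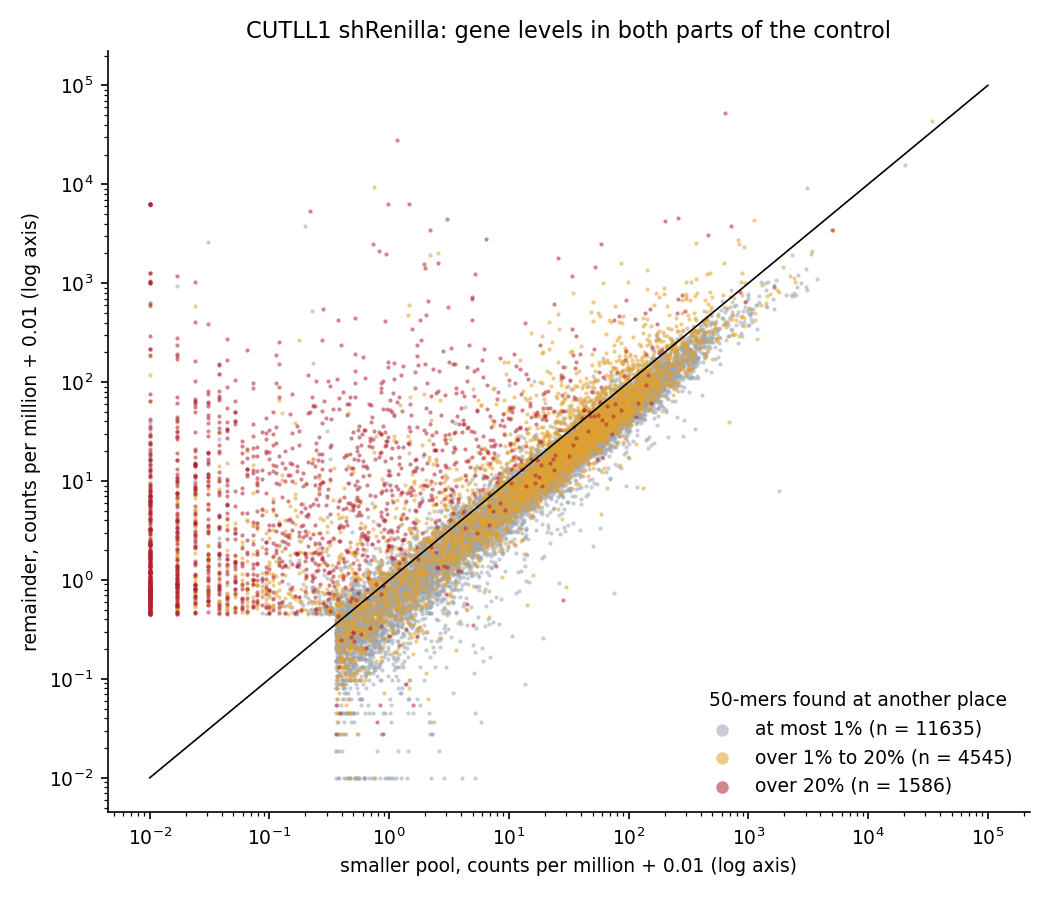
Level of each gene in the smaller pool (horizontal, CPM plus 0.01, log axis) against the remainder (vertical, same unit), 1 point per gene, for 17766 genes coloured by the share of their 50-mers found at another annotated place. The 1586 genes with over 20% repeated lie mostly above the line of equal levels, many of them at 0 in the smaller pool, while the 11635 genes with at most 1% repeated follow a band at and below the line. The axes are not TMM-scaled, and scaling to column totals shifts log2 ratios by -0.53.

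**Figure D2:**
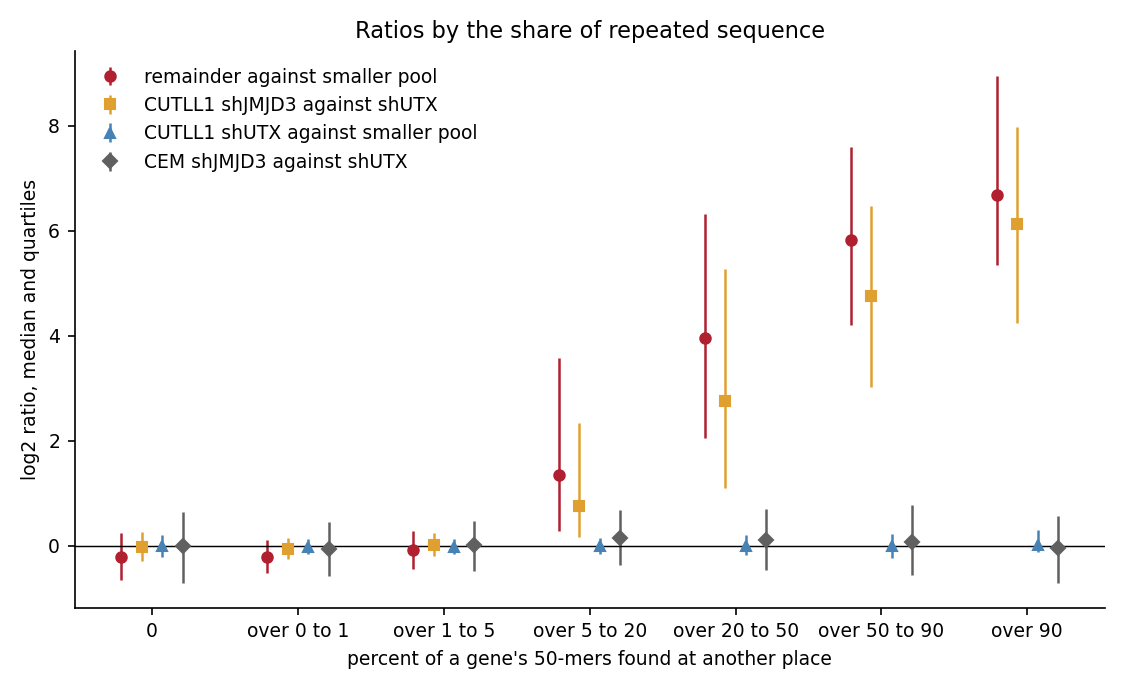
Median log2 ratio with quartiles (vertical) by the percent of a gene's 50-mers found at another place (horizontal) in 4 comparisons. The remainder against the smaller pool and CUTLL1 shJMJD3 against shUTX climb to medians of 6.67 and 6.13, while CUTLL1 shUTX against the smaller pool and CEM shJMJD3 against shUTX stay near 0. Genes needed 50 counts in either column of a comparison, so the sets of genes differ between comparisons.

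Genes absent from 1 part met the minimum of 50 counts through the other part alone. They are thus an extreme of the ratios above and not a separate result. In the smaller pool 469 of the genes compared had no count at all, and the 387 of these with a share had a median of 55.5% of their 50-mers repeated. In the remainder 38 genes had no count, and 34 of these had at most 1% repeated. A gene near the level minimum differed more often: of the 537 genes whose higher part held 50 to 59 counts, 45.4% were 2-fold apart, and of the 627 just outside, at 40 to 49 counts, 50.4% were.

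Copies of the U1 gene had nearly equal counts in the remainder. The 9 U1 genes RNU1-1 to RNU1-9 had between 702485 and 721562 counts each in the remainder, and between 812669 and 822517 in the shJMJD3 column. In the smaller pool they had 0 to 212 and in the shUTX column 0 to 149. Of the 8 that matched a reference transcript, 7 are identical to RNU1-1 and RNU1-6 differs from it by 1 substitution. RNU1-8, with no count in the smaller pool, was at least 440800-fold higher in the remainder, measured against a floor of 3 counts in the smaller pool.

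Several pairs of protein-coding copies also had nearly equal counts in the remainder and few in the smaller pool. The histone H3 genes HIST2H3A and HIST2H3C had 117083 and 117135 counts in the remainder, 153538 and 153676 in shJMJD3, and 0 in the smaller pool and in shUTX. SLX1A and SLX1B, copies for a subunit of a structure-specific nuclease, had 7506 and 7126 counts in the remainder and 4 and 2 in the smaller pool. SERF1A and SERF1B had 1703 and 1670 in the remainder and 2 in each case in the smaller pool, and MAGED4 and MAGED4B had 2174 and 2149 against 7 and 0. Copies of the sulfotransferase SULT1A3 were less alike: the 2 identifiers listed under that name had 9218 and 7218 counts in the remainder and 3 each in the smaller pool, and SULT1A4 had 4569 and 6. RANBP2, the nuclear pore protein from which the RGPD copies derive, has 28.6% of its 50-mers repeated and had 20176 counts in the smaller pool and 21825 in the remainder, a log2 ratio of 0.99. Its copy RGPD6, with 100% repeated, had 0 and 4857.

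Most pseudogenes were higher in the remainder. Of the 1924 pseudogenes of all kinds compared, 1437 were at least 2-fold higher in the remainder and 68 lower, and the median log2 ratio was 4.19. Of the 1436 annotated as processed, which are retrotransposed copies of mRNAs, 1111 were higher and 43 lower, with a median of 4.64. Among all genes compared, 16.6% were higher and 7.44% lower. Pseudogenes could meet the minimum count through the remainder alone. Their being higher, and the size of these medians, are thus in part set by that rule. Pseudogenes in all held 0.376% of counts in the smaller pool and 3.94% in the remainder. The 289 of all kinds with at most 1% repeated had a median of -0.01. EEF1A1P5, a copy of the mRNA for translation elongation factor 1 alpha, had 440 counts in the smaller pool and 505331 in the remainder, more than the 281738 counts of EEF1A1 itself there. EEF1A1 had 8541 counts in the smaller pool.

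RNAs without a poly(A) tail were abundant in both parts and nearly absent from CEM. Replication-dependent histone mRNAs, which end in a stem-loop in place of a tail, held 5.31% of counts in the smaller pool, 3.45% in the remainder and 0.0252% in CEM shRenilla. RMRP and RPPH1, the latter the RNA of ribonuclease P, together held 4.82%, 3.61% and 0.01085%. RPPH1 is listed under 2 identifiers with nearly the same counts. Whether its reads enter this sum more than once was not tested. Small nucleolar and Cajal body RNAs held 1.73%, 1.84% and 0.0376%. So neither part was free of untailed RNA, and which libraries of either selection went into each pooled column cannot be told apart.

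7SK, 7SL and Y RNAs and spliceosomal RNAs took a larger share of the remainder than of the smaller pool. The class of 7SK, 7SL, Y and other small RNAs held 0.149% of counts in the smaller pool (0.148% to 0.150%) and 14.0% in the remainder (14.0% to 14.0%). Its 63 members with at most 1% repeated 50-mers, of 118, had a median log2 ratio of 3.59, with 39 at least 2-fold higher and 7 lower. They held 0.0108% and 0.839% of counts. Over all genes with at most 1% repeated, 3.19% were higher and 9.4% lower. These members could meet the minimum of 50 counts through the remainder alone, so being higher is in part set by that rule. Spliceosomal small nuclear RNAs held 0.801% and 6.08%. The 9 U1 genes RNU1-1 to RNU1-9 made up most of the latter share, with 6183 to 6351 CPM each. In the smaller pool they had at most 1.47 CPM each. Their counts were nearly equal, and whether the same reads enter this sum more than once was not tested. Spliceosomal RNAs with at most 1% repeated 50-mers had a median log2 ratio of -0.09. Mitochondrially encoded mRNAs held 0.0696% and 0.347%, and mitochondrial ribosomal RNAs 3.69% and 5.30%. Long non-coding RNAs held 2.65% and 2.27%. Other protein-coding genes held 79.3% of the smaller pool and 58.3% of the remainder, against 90.7% in CEM shRenilla. Small non-coding RNAs in all (nucleolar, Cajal body, spliceosomal, 7SK, 7SL and Y, microRNA hairpins, RMRP and RPPH1) took 7.59% of the smaller pool and 25.6% of the remainder, and 4.77% and 6.99% among genes with at most 1% repeated 50-mers.

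**Figure D3:**
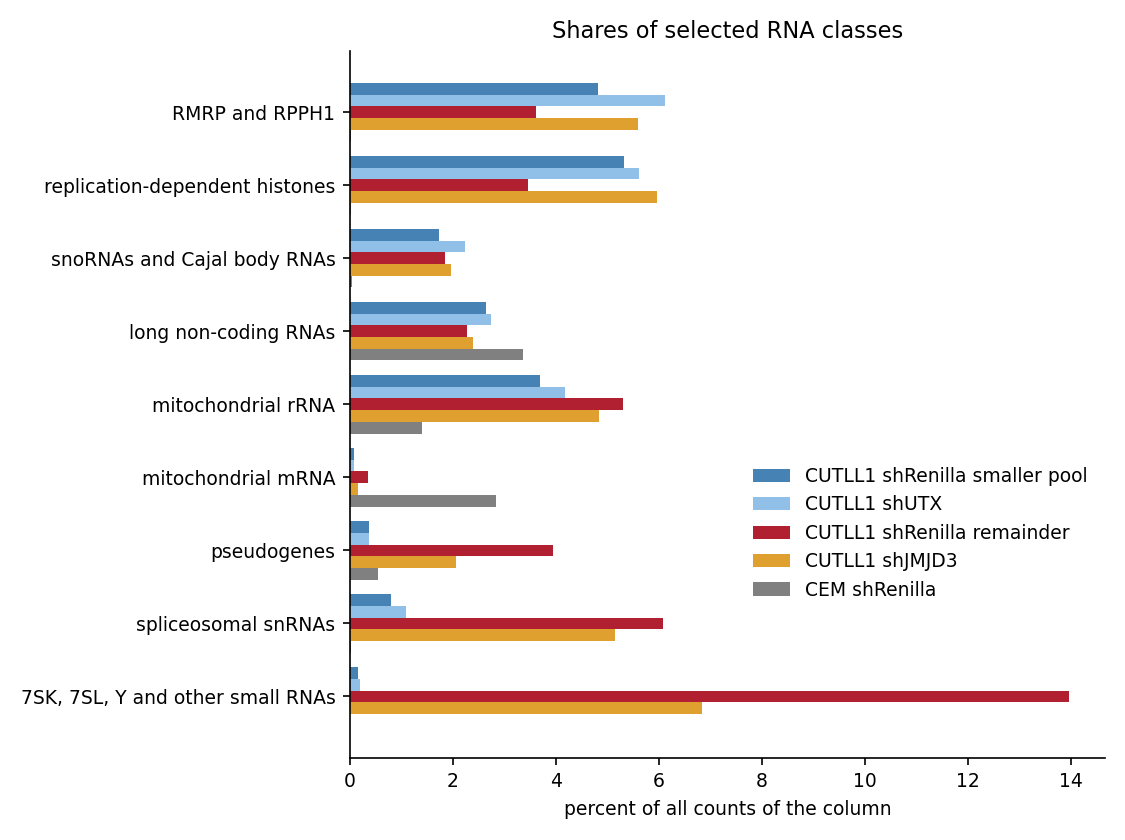
Percent of all counts of a column (horizontal) held by 9 RNA classes in the 4 CUTLL1 columns and CEM shRenilla. Spliceosomal RNAs hold 6.08% of the counts in the remainder and 5.15% in shJMJD3, against 0.801% in the smaller pool and 1.09% in shUTX. Most of the share in the remainder and in shJMJD3 lies in the 9 U1 genes, whose counts are nearly equal. The histone and RMRP classes are present in all 4 CUTLL1 columns.

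The direction was not the same for every copy of a small RNA. A gene listed as U2 had 262573 counts in the smaller pool and 907 in the remainder, a log2 ratio of -7.30 (-7.40 to -7.21), and the pseudogene RNU2-6P had 4360 and 95. None of the 50-mers of that U2 gene are found at another annotated place. RNU2-2, with 61.3% repeated, had 725529 counts in the smaller pool and 389697 in the remainder, a log2 ratio of -0.02. WDR74, a ribosome biogenesis gene that overlaps RNU2-2, had nearly the same counts, 736106 and 396326. The 50-mer share sees annotated transcripts only, so a copy outside the annotation goes unseen.

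Genes with sequence of their own still differed between the parts, and more of them were lower than higher in the remainder. Of the 11649 genes with at most 1% repeated 50-mers, 371 were at least 2-fold higher in the remainder (3.19%) and 1095 lower (9.4%). Among the 9007 of these that code for proteins, 177 were higher (1.97%) and 744 lower (8.26%), with a median log2 ratio of -0.21. The following medians should be read against that level, and the counts of list members against these shares. With that median set to 0 the counts were 580 higher and 765 lower for the 11649 genes and 320 and 516 for the protein-coding ones, and with column totals 176 and 3412, and 63 and 2543. The lists with the lowest medians, among those with at least 3 such members, were those of hypoxia and of amino acid and protein folding stress.

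Hypoxia response genes are switched on by hypoxia-inducible factors when oxygen is short. Of the 15 list members with at most 1% repeated 50-mers (glycolysis genes aside), 12 were at least 2-fold lower in the remainder and 1 higher, with a median log2 ratio of -1.91. BNIP3L, which marks mitochondria for removal, had 284 CPM in the smaller pool, 422 in shUTX, 254 in shJMJD3 and 28.3 in the remainder, a log2 ratio of -2.80 (-2.85 to -2.75). The remainder stood alone as the low column. P4HA1, a collagen prolyl hydroxylase, had 214, 339, 248 and 27.8 CPM in the same order, a log2 ratio of -2.42 (-2.47 to -2.36). The angiogenic factor VEGFA had 148, 169, 90.7 and 27.8 CPM, a log2 ratio of -1.88. The oxygen sensor EGLN3 had 5.20, 6.58, 6.71 and 0.176 CPM, and ADM, the hormone adrenomedullin, had 327 counts in the smaller pool and 2 in the remainder. LOX, a lysyl oxidase, was the exception with 58 and 79 counts, a log2 ratio of 1.28 (0.81 to 1.83). After TMM scaling of each pair, 13 of the 15 were lower in the remainder than in each of the other 3 CUTLL1 columns, 12 of them at least 2-fold.

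Genes of the ATF4 and endoplasmic reticulum stress response, which restores amino acid supply and protein folding, gave a similar picture. Of 15 members with at most 1% repeated 50-mers, 13 were at least 2-fold lower in the remainder and 0 higher, with a median of -1.77. The glutathione-degrading enzyme CHAC1 had 26.2 CPM in the smaller pool, 33.6 in shUTX, 15.55 in shJMJD3 and 0.924 in the remainder, a log2 ratio of -4.28 (-4.59 to -4.02). The pseudokinase TRIB3 had 291, 322, 121 and 41.1 CPM in the same order, a log2 ratio of -2.30 (-2.34 to -2.25). DDIT3, the transcription factor CHOP, had 44.1, 50.3, 33.7 and 8.96 CPM. PHGDH, which opens serine synthesis, had 218, 286, 170 and 79.5 CPM, a log2 ratio of -0.93, and was thus not 2-fold apart. After TMM scaling of each pair, 14 of the 15 were lower in the remainder than in each of the other 3 columns, 13 of them at least 2-fold.

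**Figure D4:**
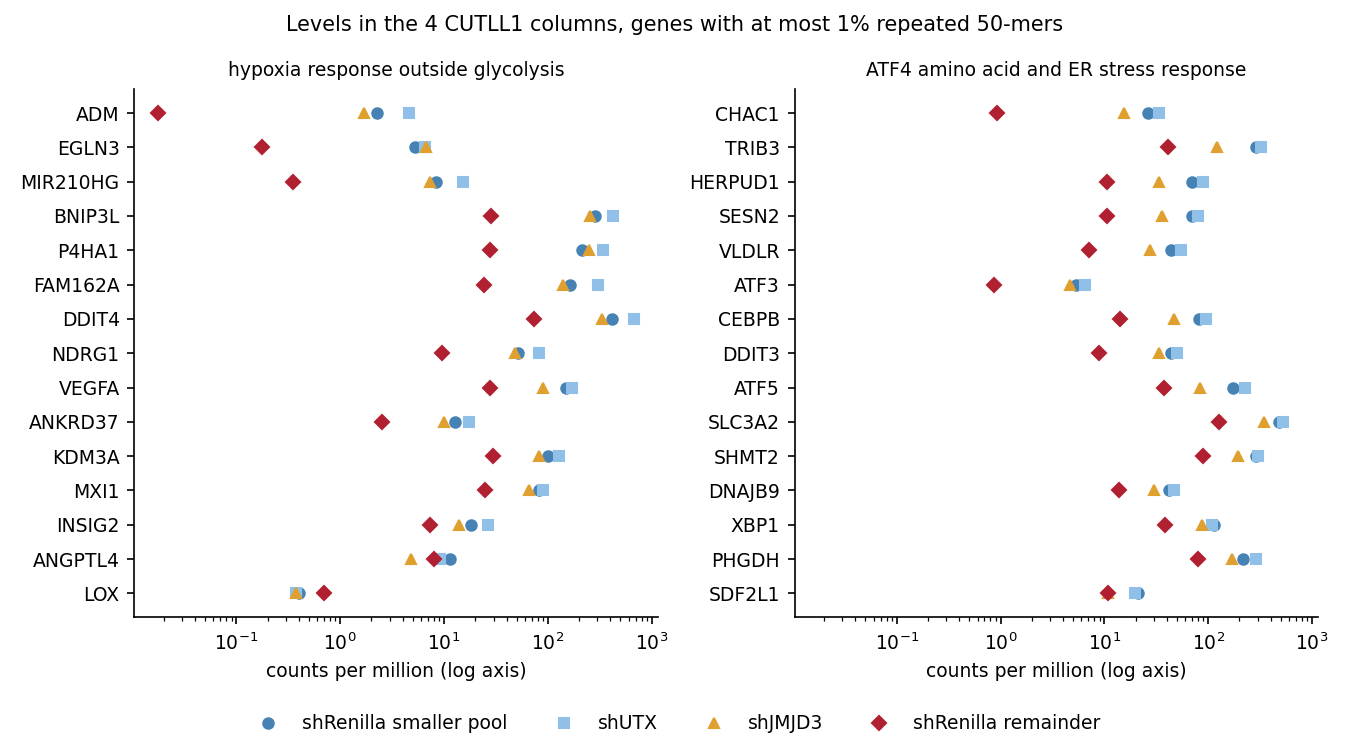
CPM (horizontal, log axis) in the 4 CUTLL1 columns for 15 hypoxia response genes and 15 genes of the ATF4 and endoplasmic reticulum stress response with at most 1% repeated 50-mers. The remainder is the lowest of the 4 columns in 13 and 14 of the genes, with CHAC1 at 0.924 CPM against 15.55 or more elsewhere.

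Glycolysis genes lay on both sides. Of 22 genes, 3 were at least 2-fold higher in the remainder and 8 lower, with a median of -0.66. The 3 higher ones had repeated sequence: PGAM1 had a log2 ratio of 4.23 with 30.7% of its 50-mers repeated, TPI1 2.52 with 12.8%, and GAPDH 2.47 with 8.07%. Among the 10 members with at most 1% repeated, 0 were higher and 5 lower, with a median of -0.99. The 3 other lower genes had somewhat more repeated sequence: the lactate transporter SLC16A3 was at -1.79 with 1.25%, GPI at -1.60 with 2.02% and ENO1 at -1.18 with 1.97%. PFKFB4, a regulator of fructose bisphosphate levels, had 57.65 CPM in the smaller pool and 3.36 in the remainder, a log2 ratio of -3.57 (-3.72 to -3.42). PDK1, the kinase that turns off pyruvate dehydrogenase, had 118 and 8.77 CPM, a log2 ratio of -3.22 (-3.31 to -3.13). The glucose transporter SLC2A1 had 133.5 and 41.3 CPM, a log2 ratio of -1.16, while PKM, the last enzyme of the pathway, had 1705 and 1071 CPM, a log2 ratio of -0.14.

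The single lowest protein-coding genes lay outside these lists for the most part. LDOC1L had 755 counts in the smaller pool and 0 in the remainder, at least 137-fold lower against the same floor, and had 31.1 CPM in shJMJD3 against 2.56 in shUTX. FAM167A had 586 and 0 counts, and SMAD5, a signal transducer of bone morphogenetic proteins, 324 and 0. FGFBP2, a secreted protein of cytotoxic lymphocytes, had 1974 and 9 counts. The transcription factor BHLHE40 had 2756 and 28 counts, a log2 ratio of -5.68 (-6.34 to -5.21), and the secreted hormone STC1 had 745 and 4. SMAD7, an inhibitor of transforming growth factor beta signalling, had 308 and 3.

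Fewer genes with their own sequence were higher in the remainder. FAM203A had 158 counts in the smaller pool and 5199 in the remainder. The tables also list FAM203B, unmatched in GENCODE 29, with 0 and 5071 counts, so the value of FAM203A is uncertain, as is that of any gene whose copy that release lacks. BOP1, a ribosome biogenesis factor that matched GENCODE 29 by symbol only, had 2319 and 11778 counts, a log2 ratio of 3.22 (3.15 to 3.28), with 49.8 CPM in shJMJD3 and 10.4 in shUTX. The cytokine TNF had 94 and 496 counts, a log2 ratio of 3.24 (2.95 to 3.61), with 1.29 CPM in shJMJD3 and 0.707 in shUTX. SERPINB2, an inhibitor of plasminogen activators, had 75 and 755 counts, a log2 ratio of 4.16 (3.86 to 4.57). For TNF and SERPINB2 the remainder was the high column and the other 3 CUTLL1 columns were low. SERPINB2 had 0.519 CPM in the smaller pool, 0.901 in shJMJD3, 0.334 in shUTX and 6.64 in the remainder.

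Replication-dependent histone genes, which supply histones during S phase, also lay on both sides. Of 67 genes, 14 were at least 2-fold higher in the remainder and 17 lower. HIST2H4A and HIST2H4B, H4 genes with 97.5% and 97.2% of 50-mers repeated, had 144066 and 143977 counts in the remainder and 0 in the smaller pool. Among the 31 with at most 1% repeated, 0 were higher and 15 lower, with a median of -0.97. HIST1H3B had 3707 CPM in the smaller pool and 1105 in the remainder, a log2 ratio of -1.22 (-1.23 to -1.21). HIST1H2BF had 1002 and 739 CPM, a log2 ratio of 0.09. The tailed variant H1F0, a linker histone of resting cells, was also low, with 25.1 and 3.28 CPM and a log2 ratio of -2.40. Most of the S phase and G2/M list was not apart: 1 of 25 members with at most 1% repeated was 2-fold higher (CCNE1, the G1/S cyclin, 1.08) and 0 lower, with a median of -0.24. The mitotic kinase CDK1 had a log2 ratio of -0.95 and the proliferation marker MKI67 one of 0.72.

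Small nucleolar RNAs, which guide the modification of ribosomal RNA, had medians on both sides of 0. All 145 box C/D RNAs compared had a median of 0.40 with 27 higher and 4 lower. All 117 box H/ACA RNAs had one of -0.06 with 19 higher and 7 lower. Of these, 29 and 16 had no share of repeated 50-mers, and 14 and 18 had over 1% repeated. Of all genes compared, 16.6% were higher and 7.44% lower, and the higher members of both kinds were near that share. Of all genes with at most 1% repeated, 3.19% were higher and 9.4% lower. The 102 box C/D RNAs with at most 1% repeated had a median of 0.28 with 7 higher and 3 lower, and the 83 box H/ACA RNAs a median of -0.26 with 2 higher and 7 lower. The U3 genes, whose copies are near identical, stood apart: SNORD3C had 2 counts in the smaller pool and 116891 in the remainder. Of 17 Cajal body RNAs with at most 1% repeated, 1 was higher and 4 lower. Spliceosomal RNAs had a median of 1.05 over 63 genes and of -0.09 over the 25 with at most 1% repeated. RNA polymerase III transcripts had a median of 1.90 over 10 genes and of -0.31 over 4.

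Cytosolic ribosomal protein genes, a family known for its many processed pseudogenes, gave 53 of 83 members at least 2-fold higher in the remainder and 0 lower, with a median of 1.56. RPS3A, with 26.1% of its 50-mers repeated, had 1984 counts in the smaller pool and 45519 in the remainder, and 11.2 CPM in shUTX against 159 in shJMJD3. RPL41, with 14.7% repeated, had 4972 and 90546 counts. The 9 members with at most 1% repeated had a median of -0.18, with 0 higher and 0 lower. Mitochondrial ribosomal proteins, with 77 genes, had a median of -0.06 and 1 gene higher (MRPL36, 1.56).

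Mitochondrially encoded genes were higher in the remainder. Of 13 mRNAs, 11 reached the 2-fold threshold upward and 0 downward, with a median of 2.20. Nuclear insertions of mitochondrial DNA are mostly outside the annotation, and their part was not tested. MT-CO1, a subunit of cytochrome c oxidase, had 7488 counts in the smaller pool and 163860 in the remainder with 49.5% of its 50-mers repeated, and MT-ND4L, with 0% repeated, had 4659 and 11662, a log2 ratio of 2.20 (2.15 to 2.25). Only 2 of the mRNAs had at most 1% repeated, with a median of 1.34, and MT-ND4L was the 1 of them at least 2-fold higher. Of 23 ribosomal and transfer RNAs, 20 were higher and 0 lower, with a median of 3.41. The 22 of these with at most 1% repeated 50-mers had a median of 3.69, with 20 higher and 0 lower. Only 10 list members with at most 1% repeated reached 50 counts in shUTX or the smaller pool, so others entered through the remainder alone. With a minimum of 200 counts the list median was 2.73 over 15 genes.

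MYC-driven ribosome biogenesis genes lay above the general level. The 19 with at most 1% repeated had a median of 0.45, with 1 higher (BOP1) and 0 lower. CAD, which opens pyrimidine synthesis, had 109 CPM in the smaller pool and 147 in the remainder, a log2 ratio of 0.96, and the nucleolar protein MYBBP1A had 155 and 176 CPM, a log2 ratio of 0.71. MYC itself had 488 and 308 CPM, a log2 ratio of -0.14. Heat shock genes had 6 of 14 higher, among them HSPA1A at 3.21 with 71.3% repeated, and 1 lower, BAG3, at -3.51. The 2 with at most 1% repeated were BAG3 and HSPH1, the latter at -0.22.

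Of the lists that describe the leukemia cell, antigen receptor segments lay below the general level. Their 44 members with at most 1% repeated had a median of -0.96, with 3 higher and 20 lower, and TRAV9-2 was at -1.11. Among all protein-coding genes with at most 1% repeated, 1.97% were higher and 8.26% lower. NOTCH receptors, ligands and targets had 0 of 24 members with at most 1% repeated higher and 4 lower, with a median of -0.29. HES1, the classic target of NOTCH1, had 76.0 and 27.2 CPM, a log2 ratio of -0.95, NRARP, a feedback inhibitor, had 197 and 196 CPM, a log2 ratio of 0.53, and HEY1 had 11.6 and 3.21 CPM, a log2 ratio of -1.32. T cell identity and receptor genes had 0 of 22 higher and 2 lower, near the shares of all such genes, with a median of -0.44. The 2 lower ones were DNTT, the terminal transferase of V(D)J joining, at -2.08, and CD69, an early activation antigen, at -1.85. CD7 and CD4 were at 0.18 and 0.10. H3K27 methylation and demethylation genes had 0 of 19 members higher and 0 lower, with a median of -0.17 and EZH2, the Polycomb methyltransferase, at 0.25.

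Immediate early genes, induced within minutes of a stimulus, had 0 of 17 members with at most 1% repeated higher and 5 lower, with a median of -0.54. Of all protein-coding genes with at most 1% repeated, 1.97% were higher and 8.26% lower. FOS had 26.6 CPM in the smaller pool, 22.2 in shJMJD3, 43.0 in shUTX and 2.90 in the remainder, a log2 ratio of -2.66 (-2.83 to -2.50), and EGR1 had 31.4, 24.0, 53.6 and 3.55 CPM in the same order. Targets of p53 had 0 of 14 higher and 5 lower, with a median of -0.57, among them PMAIP1, an inducer of apoptosis, at -1.38, while the cell cycle inhibitor CDKN1A was at 0.50. Cholesterol synthesis genes had 0 of 14 higher and 0 lower, with a median of -0.11. Interferon-stimulated genes had 2 of 18 higher and 4 lower, with a median of -0.04.

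**Figure D5:**
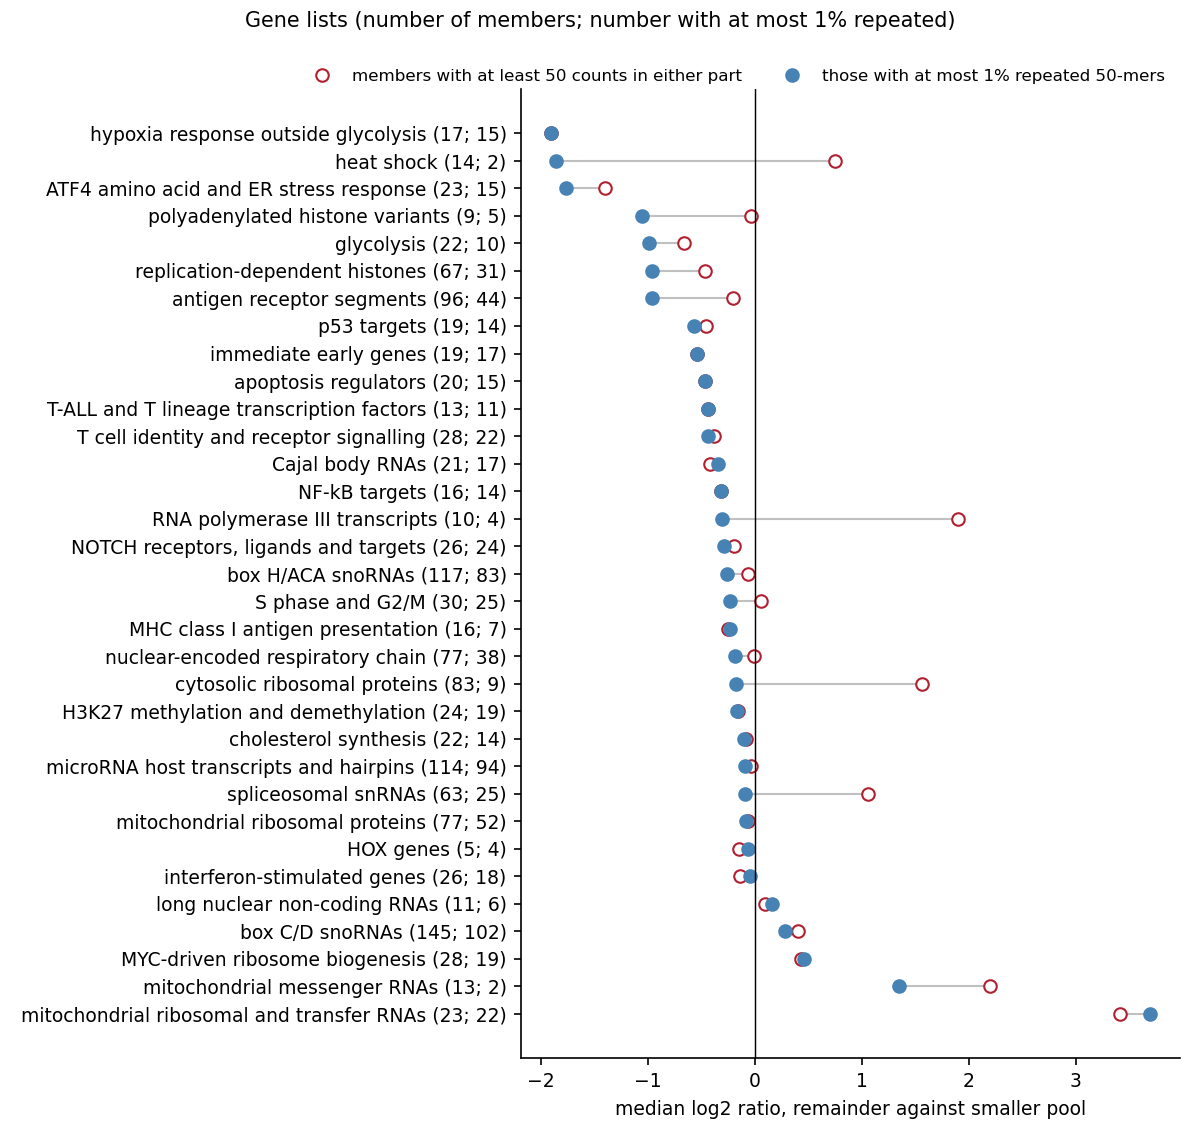
Median log2 ratio of the remainder against the smaller pool (horizontal) for 33 gene lists, over all members with at least 50 counts in either part (open circles) and over those with at most 1% repeated 50-mers (filled circles). Ribosomal proteins move from 1.56 to -0.18 and spliceosomal RNAs from 1.05 to -0.09, while the hypoxia list stays at -1.91 and the ATF4 list goes from -1.40 to -1.77.

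Length had a small relation to the ratio. The 25% of protein-coding genes with the shortest span had a median log2 ratio of -0.08 and the 25% with the longest -0.22, and by transcript length these medians were -0.14 and -0.13.

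The same gradient of repeated sequence separated the hairpins of CUTLL1, which share no column with the parts. In shJMJD3 against shUTX the median log2 ratio was -0.02 in genes with no repeated 50-mer, 2.75 in those with over 20% to 50% and 6.13 above 90%. In shUTX against the smaller pool these medians were 0.00, 0.00 and 0.02, and in CEM shJMJD3 against shUTX -0.01, 0.12 and -0.04. Over 1433 genes with over 20% repeated, the ratio of the parts and that of shJMJD3 to shUTX in CUTLL1 had a Pearson correlation of 0.97 across genes, which are not independent replicates. Over 8889 protein-coding genes with at most 1% repeated it was 0.04 (Spearman 0.27), and over all 17851 genes 0.92 (Spearman 0.56). In CEM the value over 15063 genes was 0.00. Of genes with over 20% repeated, 644 reached 50 counts in shUTX or the smaller pool. Many of the 1433 thus entered through the remainder and shJMJD3. Where shUTX and the smaller pool hold few counts, both ratios follow the level in the other column. The correlation of 0.97 and the medians above 20% repeated are in part set by that.

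The number of genes apart from a knockdown column differed between the control parts. Against the smaller pool, shUTX had 111 genes at least 2-fold higher (0.657%) and 46 lower (0.272%), and against the remainder 1740 higher (9.68%) and 3265 lower (18.1%). For shJMJD3 it was 2699 higher (14.5%) and 182 lower (0.98%) against the smaller pool, and 1913 higher (10.3%) and 1821 lower (9.81%) against the remainder. With column totals the balance moved in 2 of these: shUTX had 4376 higher and 2647 lower against the remainder, and shJMJD3 2303 and 748 against the smaller pool. Among genes with over 20% repeated 50-mers, 1250 of 1467 were higher in shJMJD3 than in the smaller pool (85.2%), and 3 of 644 in shUTX (0.466%). These 2 sets of genes differ, because each gene needed 50 counts in 1 of the columns compared. Many of the 1467 entered through shJMJD3 alone, and their being higher is in part set by that rule. Among genes with at most 1% repeated, shUTX had 91 higher (0.787%) and 34 lower (0.294%) against the smaller pool and 1368 (12.2%) and 507 (4.51%) against the remainder, and shJMJD3 had 522 higher (4.41%) and 142 lower (1.2%) against the smaller pool and 1479 (12.7%) and 349 (3.01%) against the remainder. These comparisons share their control columns and are given side by side.

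The stress lists show the same dependence in genes with sequence of their own. The hypoxia list had a median log2 ratio of 0.09 in shJMJD3 and 0.58 in shUTX against the smaller pool, and of 2.10 and 2.67 against the remainder. For the ATF4 list the medians were -0.31 and 0.22 against the smaller pool, and 1.48 and 2.11 against the remainder. For replication-dependent histones they were 0.17 and 0.10, and 1.24 and 1.07. MYC-driven ribosome biogenesis genes had medians of -0.21 and -0.43 against the smaller pool and of -0.49 and -0.95 against the remainder.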

How the data were processed

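RNA sequencing counts of 14 samples were deposited by the authors as 6 tables, 1 per line and pair of hairpins, and per the file headers each gives a raw read count per gene for both hairpins. The counts are pooled over the samples of a group. CASAVA, TopHat and hg19 are named, per the submitters' processing notes, and DEGseq, per the labels. The sources used here do not give the counting program, annotation or strand setting. Genes that overlap and near-identical copies are therefore uncertain. The remainder was obtained by subtraction.

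Ratios were scaled with TMM (edgeR 4.0.16 in R 4.3.3), each pair over all genes, with a prior count of 2. Intervals are exact binomial (Clopper-Pearson). The threshold was 2-fold, and genes needed 50 counts in 1 of the parts. DESeq2 1.42.0 served for size factors as an alternative. The ratio and 50-mer scripts were tested on simulated data. Biotypes and transcripts come from GENCODE release 29, which matched 48932 genes by identifier and 1852 by symbol and left 4291 unmatched. That release is on GRCh38, so coordinates are given for the printed sequences only. The repeated share is the percent of a gene's exonic 50-mers that occur at another annotated place.

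Named were KDM6B and KDM6A, the genes with most counts, the 15 highest and 15 lowest protein-coding genes with at least 200 counts, the extremes among small and long non-coding RNAs, up to 6 members of each list in each direction or those with most counts, and V segments with at least 5% of their chain. Genes of the split by repeated sequence, the gene copies and other single genes were named after their values were seen. Members and the 33 lists were chosen with earlier results of these data known. Some items that this rule names are not reported here.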

Additional observations from a re-analysis of the deposited data

How the results depend on the processing

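No paired analysis was possible because the columns are pooled and carry no replicate numbers, and for the same reason no replicate could be left out. Scaling to column totals shifted all log2 ratios by -0.53, protein-coding totals by -0.08, DESeq2 size factors by -0.01, and setting the median of protein-coding genes with at most 1% repeated 50-mers to 0 by 0.21. The split by repeated sequence, the 25-mers and that last scaling were chosen after the data were seen.

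The 3070 higher and 1379 lower genes became 5173 and 2547 with a minimum of 10 counts, 1968 and 843 with 200 counts, 976 and 878 among protein-coding genes, and 193 and 663 among genes with at most 1% of 25-mers repeated, each over the genes so tested. With at most 1% of 50-mers repeated the higher genes were 371. With column totals 2577 were higher and 4406 lower. Lower genes were 3408 at 1.5-fold, and 0 where the larger column was set against the smaller pool, which it contains. Among genes with at most 1% repeated the medians of 5 of 33 lists turned sign. They were spliceosomal RNAs at -0.0915, RNA polymerase III transcripts at -0.31, cytosolic ribosomal proteins at -0.18, heat shock genes, from 0.75 to -1.86 over 2 genes, and S phase and G2/M genes, from 0.06 to -0.24. With column totals 4 list medians turned sign, with protein-coding totals 1, with 10 counts 3 and with the larger column 7, all of them under 1 in size in the reported fit. No other list median of 1 or more, and no named gene at least 2-fold apart, turned sign under the alternatives run.

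Without mitochondrial genes small non-coding RNAs took 27.1% of the remainder and 7.89% of the smaller pool, and with at most 1% repeated 6.99% and 4.77%. The Spearman correlation with shJMJD3 against shUTX was 0.42 for CUTLL1 protein-coding genes and 0.31 with at most 1% repeated. For CEM it was -0.08 over all genes, -0.11 for protein-coding genes, -0.11 at 200 counts and -0.16 with at most 1% repeated. The difference in median between the 25% of genes with the longest and the shortest span, -0.14, was -0.13 at 200 counts and -0.11 with at most 1% repeated, and that of transcript length, 0.01, was 0.0217 and 0.0587.

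For shJMJD3 against the smaller pool, protein-coding genes gave 981 higher and 116 lower, genes with at most 1% repeated 522 higher, and column totals 748 lower. Against the remainder 493 protein-coding genes and 349 with at most 1% repeated were lower. For shUTX, 21 protein-coding genes were lower than in the smaller pool. Against the remainder 4376 genes were higher with column totals, and 1095 protein-coding genes and 507 with at most 1% repeated were lower. The cause of these shifts was not tested, beyond the smaller sets of genes counted. Counts near the minimum limit what the ratios of low genes can show.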
